A study of Ictidomys tridecemlineatus with 31 samples.

Results

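The genes described here are the D-type cyclins and the proteins that act with or against them, in the kidney of the 13-lined ground squirrel through its hibernation year. The set was named by gene symbol and not by any measured value. It holds the cyclins Ccnd1, Ccnd2 and Ccnd3, the cyclin-dependent kinases Cdk4 and Cdk6, the CDK inhibitors Cdkn1a, Cdkn1b, Cdkn1c and Cdkn2c, and cyclin G1 (Ccng1). All 10 genes were among the 12863 genes of the table, and each had a single row. Their symbols all matched RefSeq, and Cdkn1c carries a symbol that the authors gave by similarity to the human gene.

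D cyclins bind CDK4 and CDK6, and these complexes phosphorylate the retinoblastoma family of pocket proteins, which lets E2F factors start transcription for S phase. INK4 inhibitors such as p18 (Cdkn2c) bind the kinases and keep D cyclins off them, whereas the CIP/KIP inhibitors p21 (Cdkn1a), p27 (Cdkn1b) and p57 (Cdkn1c) bind cyclin-CDK complexes. In the kidney p21 is best known for its induction after injury, under p53 among others, and p57 for its high level in mature podocytes.

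RNA-Seq values were given for 31 kidneys, each from 1 animal, as batch-corrected regularized log (rlog) values on the log2 scale, and depth is unknown. Active animals were collected in summer (SA) and in the spring after hibernation while still in the dark hibernaculum (SpD). Animals of the hibernation season were collected when rewarmed between torpor bouts (IBA), while cooling into torpor (Ent), early in arousal from torpor (EAr) and later in arousal (LAr), with body temperature lowered in the last 3 of these states. The animals were untreated, of both sexes and perfused before dissection, and a fragment of each kidney was used, so the shares of cortex and medulla can differ between animals. SA animal 137 (K137) and LAr animal 113 (K113) are shown apart, which left 29 animals: 4 in SA and 5 in each other state. All SA, EAr and LAr animals came from experiment 2, whereas IBA, Ent and SpD had 3 animals each from experiment 1 and 2 each from experiment 2, with a different library kit. In such whole-tissue RNA, fewer cells of a type and less RNA per cell cannot be told apart.

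All 6 proximal tubule genes on the marker list were in the table, as were all 4 each for the thick ascending limb and intercalated cells and the 3 podocyte genes used here. The listed medulla genes (Slc14a2, Slc5a3, Akr1b1, Slc6a12 and Fxyd4) had a mean rlog of 12.62 in K113, against 9.64 to 9.91 in the other LAr animals, and of 13.18 in K137, against 9.70 to 11.22 in the other SA animals. Among the 29, SpD animal 130 was at 12.45 against 10.34 to 11.41 in the other SpD animals, and IBA animal 104 at 12.18 against 9.62 to 10.97 in the other IBA animals. For the 10 members, calls at q under 0.05 that rest on these 2 animals are given with and without them. Calls of marker genes and other listed genes are given only with them.

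Differences were fitted with limma over all genes and are differences of log2 (rlog) level. A gene was called at an adjusted p (q) under 0.001, the study's threshold, and results at q under 0.05 are given beside it. Across the 6 states Ccnd2 was the only called member (q = 0.00018), 1 of 10 where 9.34% of all genes were called. At q under 0.05 it was joined by Ccng1 (q = 0.0175), Cdkn2c (q = 0.0257), Ccnd3 (q = 0.0271) and Cdkn1a (q = 0.04999), so 5 of 10 passed against 46.1% of all genes. Cdk4 (q = 0.0521), Cdk6 (q = 0.0801), Cdkn1c (q = 0.0857), Ccnd1 (q = 0.370) and Cdkn1b (q = 0.449) did not, though Cdk6 passed without SpD animal 130 (q = 0.0360). Without both SpD animal 130 and IBA animal 104, a fit added after their marker levels were seen, Ccnd2 (q = 0.00075), Ccnd3 (q = 0.0362) and Ccng1 (q = 0.0366) passed, 3 of 10 against 37.5% of all genes. In all 31 animals Ccnd2 (q = 0.00016), Ccng1 (q = 0.0316) and Cdk4 (q = 0.0419) passed 0.05, and Ccnd3, Cdkn2c and Cdkn1a did not.

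**Figure D1:**
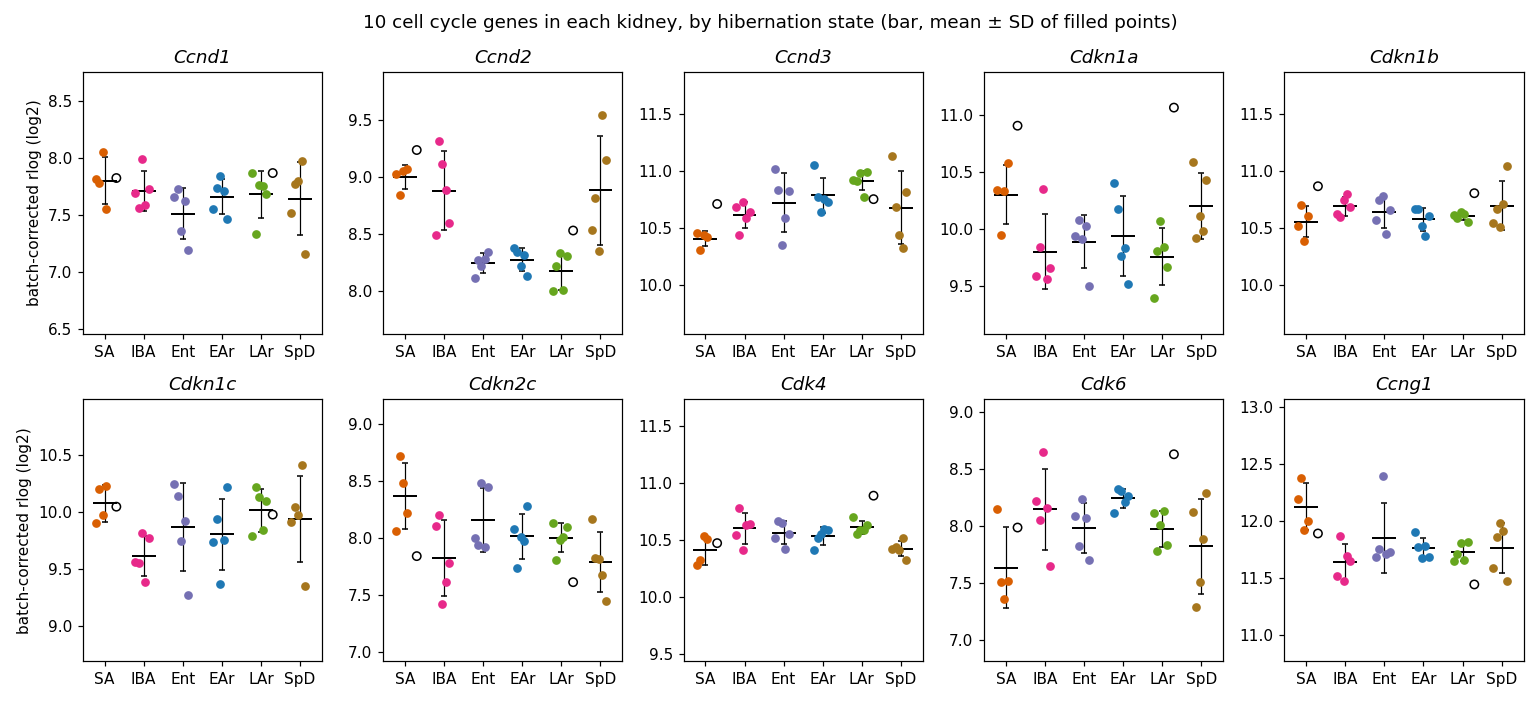
Batch-corrected rlog (log2) of each of the 10 genes (vertical axes, each spanning the same width) in every kidney, by state. Filled points are the 29 animals, bars their mean ± SD, and hollow points K137 (SA) and K113 (LAr); Ccnd2 is at 8.37 or below in all filled Ent, EAr and LAr points.

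Among the D cyclins, Ccnd2 separated the states most. Its level was 8.84, 9.02, 9.05 and 9.07 in the SA animals, and 8.48, 8.59, 8.88, 9.11 and 9.32 in IBA. In Ent it was 8.11, 8.22, 8.27, 8.27 and 8.34. The Ent animals were all below the IBA and SA animals.

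Early in arousal Ccnd2 was at 8.13, 8.21, 8.31, 8.34 and 8.37, and in LAr at 7.99, 8.01, 8.21, 8.30 and 8.33. The 5 SpD animals were at 8.35, 8.53, 8.82, 9.15 and 9.54. The Ent, EAr and LAr animals thus lay in a narrow low band that neither SA nor IBA entered, and the lowest SpD animal fell just inside it. State means were 8.997 ± 0.11 (SD, n = 4) in SA, 8.88 ± 0.35 (SD, n = 5) in IBA, 8.24 ± 0.09 (SD, n = 5) in Ent, 8.27 ± 0.10 (SD, n = 5) in EAr, 8.17 ± 0.16 (SD, n = 5) in LAr and 8.88 ± 0.48 (SD, n = 5) in SpD. In the order LAr, Ent, EAr, IBA, SpD, SA, the sole neighbours whose ranges did not overlap were EAr and IBA.

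Between neighbouring states of the torpor cycle, Ccnd2 was higher in IBA than in LAr by 0.84 (SE 0.18, q = 0.0028), or 1.79-fold, and lower in Ent than in IBA (log2 difference -0.64, SE 0.16, q = 0.0113). Neither passed 0.001, and the former did without IBA animal 171 (q = 0.00066). The IBA/LAr difference of Ccnd2 was 0.54 (q = 0.0165) in experiment 2 alone, where IBA has 2 animals (104 and 171). For Ent against IBA, the difference of means was -0.77 in experiment 1 (n = 3 and 3) and -0.43 in experiment 2 (n = 2 and 2), and in experiment 2 alone the fitted difference did not pass (-0.40, q = 0.213). No difference between EAr and Ent (-0.10, q = 0.902) or between LAr and EAr (-0.11, q = 0.920) passed.

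Ccnd2 was lower in the hibernation states (IBA, Ent, EAr, LAr) than in the active states (SA, SpD) (log2 difference -0.55, 95% interval -0.76 to -0.34, q = 0.00022). IBA itself did not differ from SA past the threshold, at 0.01 (q = 0.979) and at -0.29 in experiment 2 alone (q = 0.122), and the fitted difference of SpD from IBA was 0.00 (q = 0.996). A grouping chosen after the state means were seen sets the states with lowered body temperature (Ent, EAr, LAr) against SA, IBA and SpD. There Ccnd2 differed by -0.73 (SE 0.10, 95% interval -0.93 to -0.53, q = 4.8e-06), a level 0.602 times that of the warm states, as a description of the pattern already noticed. It was the only member called in that grouping, 1 of 10 against 10.4% of all genes. Leaving out each of the 29 animals in turn left this difference between -0.79 and -0.66.

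SpD was the least uniform state for Ccnd2, and its animals divided by experiment. The 3 SpD animals of experiment 1 had a mean of 8.57, below the IBA animals of the same experiment (log2 difference -0.40). The 2 of experiment 2 had a mean of 9.35, above the IBA animals of that experiment by 0.61. In experiment 2 alone SpD exceeded IBA by a fitted 0.64 (q = 0.0185) and SA was lower than SpD (difference -0.35, q = 0.0480), whereas neither difference passed over both experiments. The SpD animals of experiment 2 were 130 (9.15) and 84 (9.54), and the IBA animals 104 (8.88) and 171 (8.59). Neither result is given without animals 130 and 104, as SpD and IBA would each keep a single animal there.

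Some genes of several cell types, vessels, stroma and macrophages among them, were lower in the same comparisons as Ccnd2. Of the 5 listed endothelial genes, 4 were lower at q under 0.05 in the hibernation against the active states and 4 in the cold against the warm states (Kdr, Cdh5 and Emcn in both), where 33.4% and 35.3% of all genes passed. Of the 5 stromal genes 2 and 1 were lower in these comparisons, among them the collagen chain Col1a1 (log2 differences -0.64, q = 0.0191, and -0.74, q = 0.0053). Of the 4 macrophage genes 1 was lower in each. Of the 5 principal cell genes of the collecting duct 3 were lower in each. Of the 4 thick ascending limb genes 2 and 0 were lower, and of the 4 intercalated cell genes 2 and 1. Of the 5 medulla genes 1 and 2 were lower, and of the 6 proximal tubule genes 2 and 0. These counts include SpD animal 130. Its mean rlog was 11.58 for the endothelial list (10.66 to 11.14 in the other SpD animals) and 12.86 for the principal cell list (11.88 to 12.24). For the stromal and macrophage lists it was within the range of the other SpD animals. The mean rlog of the stromal list was 8.64 to 9.46 in Ent, 8.75 to 9.50 in EAr and 8.42 to 9.14 in LAr, against 8.65 to 9.67 in IBA. Over the 29 animals, which share states and batches, Ccnd2 had a Pearson's r of 0.716 with that mean, of 0.693 with the macrophage list and of 0.600 with the endothelial list, given as a description. With the other lists r ran from -0.308 (distal convoluted tubule) to 0.493 (medulla), with 0.431 for principal cells and 0.415 for the thick ascending limb. The part of these cells in the Ccnd2 differences was not tested.

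The genes whose values were most like those of Ccnd2 over the 29 animals were Mob3c (Pearson's r = 0.891), Ppp1r18 (r = 0.864) and Gdf11 (r = 0.864), given as a description over animals that share states and batches.

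**Figure D2:**
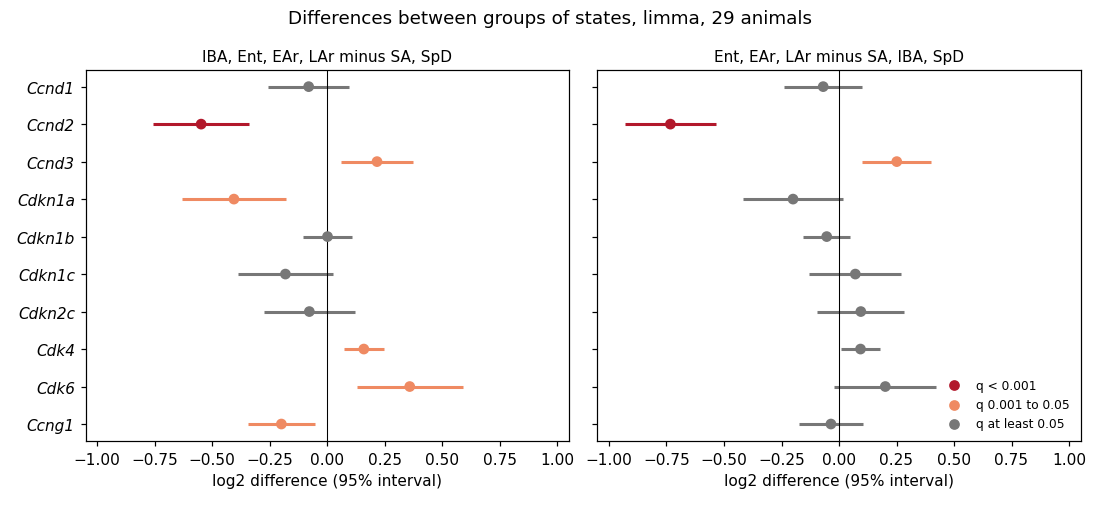
Log2 difference (horizontal axis) of the 10 genes between the hibernation and active states (left) and between the cold and warm states (right), from limma on 29 animals. Points are fitted differences and lines 95% intervals, coloured by q; Ccnd2 is the only gene past 0.001 in either panel, at -0.55 and -0.73.

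Ccnd3, which can take the place of the other D cyclins at CDK4 and CDK6, ran the opposite way. Its level was 10.31, 10.42, 10.44 and 10.46 in SA and 10.78, 10.92, 10.92, 10.98 and 10.99 in LAr, and no SA animal overlapped LAr. IBA lay largely between them at 10.44, 10.59, 10.64, 10.68 and 10.72. EAr ran from 10.64 to 11.05, Ent from 10.35 to 11.02 and SpD from 10.33 to 11.13.

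Ccnd3 was higher in the hibernation than in the active states by 0.22 (SE 0.08, q = 0.0289) and higher in the cold than in the warm states by 0.25 (SE 0.07, q = 0.0094). With Ccnd2 it made 2 of 10 members at q under 0.05 in the cold against warm grouping, where 35.3% of all genes passed. The seasonal difference did not pass without SA animal 139 (q = 0.0590), SpD animal 83 (q = 0.0680) or SpD animal 84 (q = 0.0782), nor in all 31 animals (q = 0.0792). The test across states was likewise lost without LAr animal 112 (q = 0.0544) or SA animal 138 (q = 0.0549), 139 (q = 0.0654) or 140 (q = 0.0570). IBA and LAr did not overlap, but their difference did not pass (-0.34, q = 0.0745).

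Ccnd1, the D cyclin most tied to growth factor signalling, passed in no comparison. Its state means lay between 7.51 in Ent and 7.80 in SA, all neighbouring states overlapped, and the seasonal difference was -0.08 (95% interval -0.26 to 0.10, q = 0.491).

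Both kinase partners of the D cyclins were higher in the hibernation states. Cdk4 was at 10.28, 10.32, 10.51 and 10.53 in SA and at 10.33, 10.41, 10.42, 10.44 and 10.52 in SpD. It was at 10.55, 10.58, 10.59, 10.63 and 10.70 in LAr, above all SA and SpD animals. Its ranges in IBA (10.41 to 10.78), Ent (10.42 to 10.67) and EAr (10.41 to 10.60) reached down into those of the active states.

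The seasonal difference of Cdk4 was 0.16 (SE 0.04, 95% interval 0.07 to 0.25, q = 0.0059), and it passed 0.05 without each of the 29 animals and in all 31. That of Cdk6 was larger and less even, at 0.36 (SE 0.11, 95% interval 0.13 to 0.59, q = 0.0159). Cdk6 was at 7.36, 7.51, 7.52 and 8.16 in SA and at 7.30, 7.51, 7.89, 8.13 and 8.30 in SpD. EAr had the highest mean and the smallest spread, at 8.11, 8.21, 8.26, 8.31 and 8.33, and both active states reached into that range.

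The seasonal Cdk6 difference was smaller in experiment 2 alone, at 0.15 (q = 0.343). Between SpD and IBA the difference of means was -0.67 in experiment 1 and 0.19 in experiment 2. The seasonal difference was also lost without SA animal 140 (q = 0.0527).

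Among the CIP/KIP inhibitors, Cdkn1a (p21) was lower in the hibernation season. It was at 9.95, 10.33, 10.34 and 10.58 in SA and at 9.92, 9.99, 10.12, 10.43 and 10.59 in SpD. In IBA it was at 9.57, 9.59, 9.66, 9.85 and 10.36, and in Ent at 9.50, 9.92, 9.94, 10.03 and 10.08. Most hibernating animals were below most active animals, with overlap in each pair of states.

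The EAr animals were at 9.52, 9.77, 9.84, 10.18 and 10.40 for Cdkn1a, and the LAr animals at 9.40, 9.67, 9.81, 9.85 and 10.08. The seasonal difference was -0.41 (SE 0.11, 95% interval -0.63 to -0.18, q = 0.0066), or 0.755 times the active level. It passed 0.05 without each of the 29 animals, in all 31 (q = 0.0329) and in experiment 2 alone (-0.50, q = 0.0102). Cdkn1a was lower in IBA than in SA (log2 difference -0.62, SE 0.20, q = 0.0305). That call was lost without SA animal 138, 140 or 141 or IBA animal 69, 104 or 171, with q between 0.0553 and 0.104, and in all 31 animals (q = 0.0759). IBA animal 104 had the lowest Cdkn1a of IBA, at 9.57, and without it and SpD animal 130 the difference was -0.64 (q = 0.0572). The q of 0.04999 across states was lost in 20 of 29 fits that left out an animal, among them the fit without IBA animal 104 (q = 0.0840).

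Cdkn1c (p57) had its lowest mean in IBA. Its level was 9.38, 9.55, 9.56, 9.77 and 9.81 in IBA, against 9.90, 9.97, 10.20 and 10.22 in SA with no overlap. In LAr it was 9.79, 9.84, 10.10, 10.13 and 10.22, which overlapped IBA in a single animal. Ent (9.27 to 10.24), EAr (9.36 to 10.22) and SpD (9.35 to 10.41) spanned nearly the whole range of the gene.

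Cdkn1c was lower in IBA than in SA (log2 difference -0.62, SE 0.19, q = 0.0199), which did not pass without IBA animal 104 (-0.54, q = 0.0809) or in experiment 2 alone (-0.65, q = 0.0673). It was lower in IBA than in LAr (log2 difference -0.54, SE 0.18, q = 0.0374). That difference passed in all 31 animals (q = 0.0393) but was lost in 10 of 29 fits that left out an animal, among them the fits without IBA animal 104 (-0.46, q = 0.137) and SpD animal 130 (q = 0.0589), and in experiment 2 alone (q = 0.144). Without both animals the IBA/SA difference was -0.46 (q = 0.130) and the IBA/LAr difference -0.38 (q = 0.218). The seasonal difference did not pass (-0.18, q = 0.169).

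The 3 podocyte genes also had their lowest mean in IBA. Their mean rlog was 11.55 in IBA (10.53 to 12.03), 12.07 in SA (11.92 to 12.33) and 12.14 in LAr (11.98 to 12.33), so that IBA overlapped both, and SpD animal 130, with the lowest SpD value of Cdkn1c (9.35), was at 10.85. The lowest mean, 10.53, was that of IBA animal 104, which also had the lowest Cdkn1c of IBA (9.38). Nphs1, which makes a protein of the slit diaphragm, was lower in IBA than in SA (log2 difference -1.21, q = 0.0259). Podxl (-0.43, q = 0.182) and Wt1 (-0.50, q = 0.186) did not pass there. In IBA animal 104 Nphs1 was at 9.675, against 10.50 to 11.55 in the other IBA animals, and its call is not given without that animal. Over the 29 animals Cdkn1c had a Pearson's r of 0.653 with the podocyte mean, as a description. Whether the amount of glomerulus in the fragments bore on Cdkn1c was not tested.

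**Figure D3:**
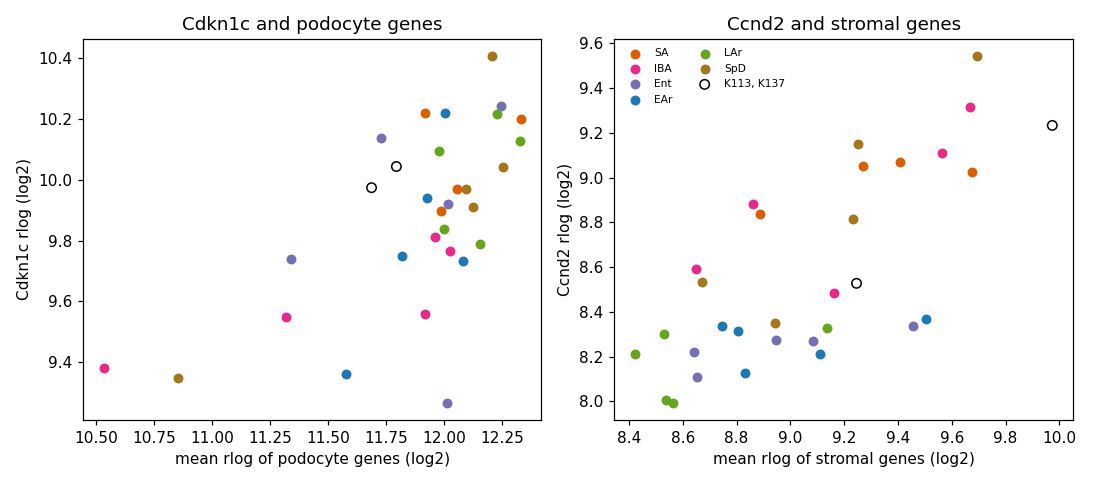
Left, Cdkn1c against the mean rlog of podocyte genes; right, Ccnd2 against the mean rlog of stromal genes, both axes log2, 1 point per kidney coloured by state and hollow for K113 and K137. The IBA animals lie at 9.38 to 9.81 for Cdkn1c, below all SA animals, and the point at the far left is IBA animal 104. On the right, points with a higher stromal mean tend to have a higher Ccnd2, and the filled Ent, EAr and LAr points lie at 8.37 or below.

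Cdkn1b (p27), typical of quiescent cells, had the narrowest range of state means. They lay within 0.14 of each other, between 10.56 in SA and 10.70 in SpD, and its seasonal difference was 0.00 (95% interval -0.10 to 0.11, q = 0.985). It passed in no pair of states.

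Cdkn2c (p18), the INK4 member of the set, was highest in SA, at 8.06, 8.22, 8.49 and 8.72. IBA was at 7.42, 7.61, 7.78, 8.11 and 8.21, and SpD at 7.45, 7.68, 7.82, 7.82 and 8.17. A pair of IBA animals and a single SpD animal overlapped SA. Ent ran from 7.92 to 8.49, EAr from 7.74 to 8.28 and LAr from 7.81 to 8.13.

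Cdkn2c was higher in SA than in SpD by 0.67 (SE 0.18, q = 0.0205), or 1.59-fold, and lower in IBA than in SA (log2 difference -0.63, SE 0.18, q = 0.0125). SA animal 139, the highest, decided both: without it q was 0.0792 and 0.0614. Without SpD animal 130 the SA/SpD difference was 0.51 (q = 0.150), and without it and IBA animal 104 the IBA/SA difference was -0.53 (q = 0.0687). In all 31 animals neither passed (q = 0.0968 and 0.0574). K137 was below every other SA animal, at 7.84. The test across states was lost without SA animal 139 (q = 0.0710) or 140 (q = 0.0524) or SpD animal 130 (q = 0.0631).

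Ccng1 (cyclin G1), a p53 target that binds subunits of a protein phosphatase, was also highest in SA. It was at 11.92, 12.00, 12.19 and 12.38 in SA and at 11.47, 11.51, 11.65, 11.69 and 11.87 in IBA, with no overlap. SpD was at 11.47, 11.59, 11.86, 11.91 and 11.98 and met SA in a single animal. In Ent, 4 animals lay between 11.68 and 11.75 and animal 66 at 12.39.

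Ccng1 was lower in IBA than in SA (log2 difference -0.57, SE 0.13, q = 0.0034), and this passed without each of the 29 animals and in all 31 (q = 0.0144). It was higher in SA than in SpD by 0.44 (SE 0.13, q = 0.0335), which was lost without SpD animal 130 (0.37, q = 0.170), SA animal 138 (q = 0.0762) or SA animal 139 (q = 0.102). State means were 12.12 in SA, 11.64 in IBA, 11.85 in Ent, 11.76 in EAr, 11.72 in LAr and 11.76 in SpD. Of the active states only SA thus lay above all hibernation states, and SpD/IBA did not pass (0.13, q = 0.506). The seasonal difference of Ccng1 was -0.20 (SE 0.07, q = 0.0317). That was lost without SA animal 138 (q = 0.0848) or 139 (q = 0.0941) or SpD animal 83 (q = 0.0625) or 84 (q = 0.0728), and in all 31 animals (q = 0.0566). The test across states was lost without SA animal 138 (q = 0.0621) or 139 (q = 0.0770).

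Counted by comparison, the seasonal one had the most members at q under 0.05. In the hibernation against the active states 6 of 10 passed 0.05, lower for Ccnd2, Cdkn1a and Ccng1 and higher for Ccnd3, Cdk4 and Cdk6, where 33.4% of all genes passed. For Ccng1 and Ccnd3 the SpD mean lay among those of the hibernation states. At 0.001 Ccnd2 alone was called, 1 of 10 against 9.73%.

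No pair of states had a member at q under 0.001 by limma. At that threshold 0.0544% of all genes were called in SA/SpD, 3.15% in IBA/SA, 0.746% in Ent/IBA, 0.132% in EAr/Ent, 0.295% in LAr/EAr, 1.43% in IBA/LAr and 1.25% in SpD/IBA. At q under 0.05, 4 of 10 members passed in IBA/SA (Cdkn1a, Cdkn1c, Cdkn2c and Ccng1, all lower in IBA), beside 22.9% of all genes. Without IBA animal 104 and SpD animal 130 only Ccng1 passed in IBA/SA (-0.56, q = 0.0155), 1 of 10 beside 14.2%. Of the 6 proximal tubule genes 5 were also lower in IBA than in SA (list median -0.89, beside 0.03 over all genes), with a mean rlog of 13.78 to 14.65 in IBA and 15.08 to 15.35 in SA, and their part in the members' differences was not tested. In SA/SpD 2 of 10 passed (Cdkn2c and Ccng1) beside 10.5%, in Ent/IBA 1 of 10 (Ccnd2) beside 13.1%, and in IBA/LAr 2 of 10 (Ccnd2 and Cdkn1c) beside 18.0%. In SpD/IBA no member passed beside 11.9% of all genes, with 2 at an unadjusted p under 0.05. None passed in EAr/Ent (0.257% of all genes) or LAr/EAr (0.575%), where no member had an unadjusted p under 0.05 either. The pairs share animals, so their counts are not independent of each other.

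**Figure D4:**
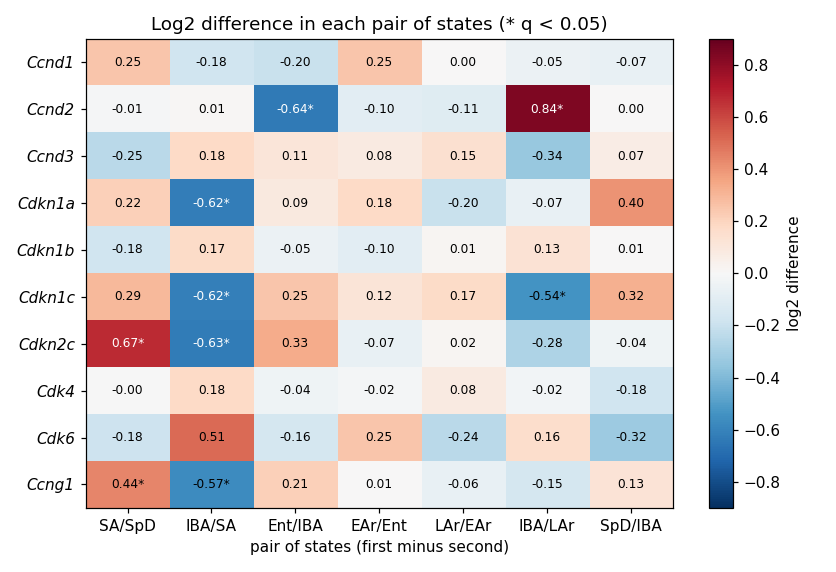
Fitted log2 difference (colour and printed value) of each gene (rows) in each pair of states (columns, the state named before the slash minus the other), limma on 29 animals, with an asterisk at q under 0.05. Asterisks stand on 4 genes in IBA/SA, all negative, and on Ccnd2 at -0.64 in Ent/IBA and 0.84 in IBA/LAr; EAr/Ent and LAr/EAr have none.

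No member differed between females and males at q under 0.05, where 0.218% of all genes did, and 2 members had an unadjusted p under 0.05. For the interaction of sex with season 0 members and 0% of all genes passed by limma, with 3 members (Cdkn1a, Cdk6 and Ccnd3) and 595 genes at an unadjusted p under 0.05. The largest of these was for Cdkn1a, at 0.61 (unadjusted p = 0.0038 by limma, q = 0.778 over all genes), and in all 31 animals it was 0.33 (unadjusted p = 0.263).

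K113 and K137 shared a high Cdkn1a. K113 was at 11.07, above every other kidney, and K137 at 10.91 was above the other SA animals. K113 lay outside the range of the other LAr animals in 9 of 10 members, where it did so in 72.9% of all genes. Besides Cdkn1a it was high in Cdk6 (8.63 against 7.78 to 8.14), Cdk4 (10.89 against 10.55 to 10.70) and Ccnd2 (8.53 against 7.99 to 8.33), and low in Cdkn2c (7.61 against 7.81 to 8.13) and Ccng1 (11.44 against 11.65 to 11.81).

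K137 was outside the SA range in 6 of 10 members, beside 63.4% of all genes, and SpD animal 130 outside the range of the other SpD animals in 7 of 10, beside 61.1%. Cdkn2c and Ccng1 were below the range of the others in all 3 kidneys, and Cdkn1b above it in all 3, at 10.81 in K113, 10.87 in K137 and 11.05 in animal 130. These 3 had raised medulla genes and 5 or 6 of the 6 proximal tubule genes below the range of their state. IBA animal 104, with raised medulla genes and 4 of 6 proximal tubule genes below the range, was outside the IBA range in 3 of 10 members, beside 37.0% of all genes: low in Cdkn1a and Cdkn1c and high in Cdkn1b (10.80), with Cdkn2c and Ccng1 within range. Cdkn1a in animal 130 was within range, at 10.43. The part of medulla content in these values was not tested.

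**Figure D5:**
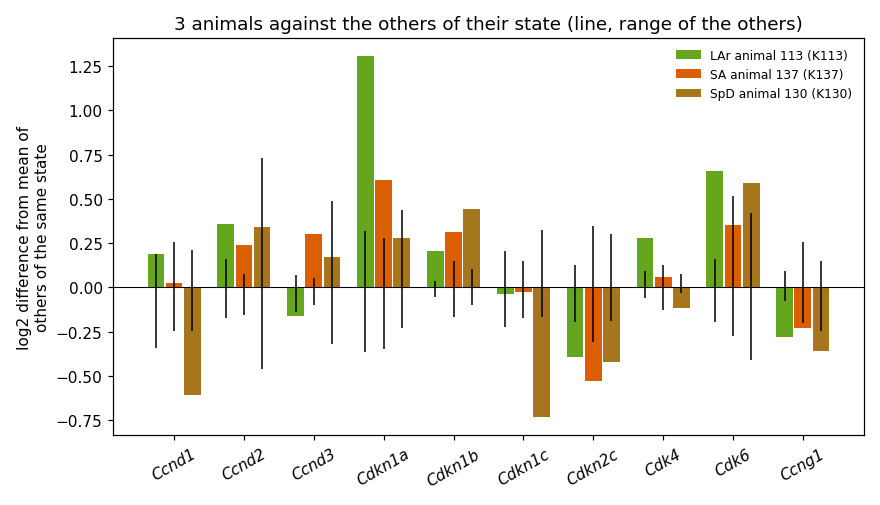
Log2 difference (vertical axis) of K113, K137 and SpD animal 130 from the mean of the other animals of their state, for the 10 genes. Lines give the range of those other animals around their mean; the tallest bar is Cdkn1a in K113, at 1.31.

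Of the pathway beyond the D cyclins, 12 of 18 listed pocket protein, E2F and DREAM genes were in the table. Across states 2 of the 12 were called, beside 9.34% of all genes: Lin52 (q = 8.2e-05) and Lin37 (q = 0.00022), subunits of the MuvB core of the DREAM complex. Like Ccnd2, both were lower in the cold than in the warm states (log2 differences -0.35, q = 4.3e-06, for Lin52 and -0.29, q = 1.5e-05, for Lin37). Other genes of that core did not follow: Lin54 was higher in the cold states (0.125, q = 0.0273) and Rbbp4 did not pass (0.013, q = 0.779). In that grouping 2 of the 12 were higher and 4 lower at q under 0.05, beside 35.3% of all genes in either direction. Lin52 had a mean of 8.82 ± 0.06 in SA, 8.62 ± 0.05 in IBA, 8.37 ± 0.18 in Ent, 8.39 ± 0.13 in EAr, 8.31 ± 0.04 in LAr and 8.63 ± 0.13 in SpD (SD). In the seasonal comparison 2 of the 12 were higher and 3 lower at q under 0.05, beside 33.4% of all genes in either direction, with a list median of 0.06 beside 0.00 over all genes.

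Of 6 genes for cyclin E, CDK2, Cdc25a and the CDK-activating kinase, only Cdk7 was called across states (q = 0.00037), 1 of 6 beside 9.34% of all genes. At 0.05, 2 of the 6 passed, beside 46.1%. Cdk7 is the catalytic subunit of the kinase that activates CDK4 and CDK2, and its state means lay between 9.22 ± 0.07 in EAr and 9.66 ± 0.24 in IBA (SD). Its cyclin, Ccnh, was higher in the hibernation states by 0.28 (q = 8.2e-05). Of 12 genes for turnover of D cyclins and CIP/KIP proteins, 0 were called across states by limma at 0.001 and 3 passed 0.05, beside 9.34% and 46.1% of all genes. The only other INK4 gene tested, Cdkn2d, was not called.

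Cdkn1a and Ccng1 are known targets of p53. Of 25 other genes of the p53 pathway 22 were in the table, of which 3 were called across states and 14 passed 0.05, beside 9.34% and 46.1% of all genes. Btg2, an antiproliferative gene that represses cyclin D, was lowest in EAr at 9.38 ± 0.12 and highest in LAr at 10.97 ± 0.26 (SD, n = 5 each; q across states 1.1e-09). Ccng2, a relative of Ccng1 linked to cell cycle arrest, was lower in the hibernation states (log2 difference -0.42, q = 3.5e-05), from 9.42 ± 0.08 in SA (SD, n = 4) down to 8.71 ± 0.15 in LAr (SD, n = 5). In the seasonal comparison 3 of the 22 were higher and 6 lower at q under 0.05, beside 33.4% of all genes in either direction.

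Of 23 listed genes for S phase, G2 and mitosis, 8 were in the table, all from DNA replication and nucleotide supply. Across states 0 of the 8 were called by limma at 0.001 and 4 passed 0.05, beside 46.1% of all genes. In the hibernation states 4 were higher at 0.05, where 33.4% of all genes passed in either direction, all of them subunits of the MCM helicase that opens replication origins, with Mcm5 at 0.30 (q = 0.00042) called. Another subunit, Mcm4, was not higher (-0.11, q = 0.0844), and it was lower in the cold than in the warm states (log2 difference -0.21, q = 0.0013). The list median was 0.15 in the seasonal comparison, beside 0.00 over all genes.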

How the data were processed

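Reads were trimmed by the authors (cutadapt) and freed of mitochondrial reads (HISAT2). Salmon then quantified transcripts of the HiC_Itri_2 annotation, which the authors summed to genes, filtered by rlog level, and batch-corrected with limma. The deposited table thus holds rlog values on the log2 scale, without counts, and rlog shrinks differences of low genes. DESeq2 was the authors' test on their counts. In its place limma 3.58.1 (R 4.3.3) was fitted here to all 12863 genes in 29 animals, with terms for state, sex and experiment and a mean-dependent prior variance, and p-values were adjusted by Benjamini-Hochberg over all genes per comparison. The fit does not count the degree of freedom used by the batch correction. Named genes are the members, at most 4 called genes per list, the 3 genes most like a called member, and cell type markers. Ccnh, Mcm4, Mcm5, Cdkn2d, Lin54 and Rbbp4 were added after their values were seen. Members and lists were chosen with earlier results of these data known. Alternatives covered the animals, with a fit without IBA animal 104 and SpD animal 130 added after seeing the data, model terms, threshold and filter. RefSeq symbols came from another assembly, so no positions are given. One podocyte marker of the original list is not reported here and was left out for a reason unrelated to its values. Replicates are separate animals. Figures used matplotlib 3.10.9.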

Additional observations from a re-analysis of the deposited data

Results flagged for a closer look

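Of 80 groups of 4 to 6 animals examined, 3 held a single animal whose gap to the nearest other was large for the range of its group, and chance alone gives about 1 in 20 such groups. In Ent, Cdkn1a was lowest in animal 167, at 9.50, against 9.92 to 10.08 in the others. In LAr with K113 included, Cdkn1b was highest in K113, at 10.81, against 10.55 to 10.64. In Ent, Ccng1 was highest in animal 66, at 12.39, against 11.68 to 11.75. The causes were not tested.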

How the results depend on the processing

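At a threshold of 0.05 in place of 0.001, the members called were 5 across states (46.1% of all genes), 2 in SA/SpD (10.5%), 4 in IBA/SA (22.9%), 1 in Ent/IBA (13.1%), 2 in IBA/LAr (18.0%), 6 in the hibernation against active states (33.4%) and 2 in the cold against warm states (35.3%). With animal weights, 1 was called in IBA/SA, 1 in IBA/LAr, 2 in the hibernation against active states and 2 in the cold against warm states. Calls over all genes also changed with the weights. They rose from 1201 to 2436 across states and from 405 to 474 in IBA/SA, and fell from 7 to 1 in SA/SpD. Leaving out each animal in turn gave 0 to 1 members called in IBA/LAr, with 1 only without IBA animal 171. The counts at 0.001 were the same with all 31 animals, without the experiment or sex term, without the trend, with a robust prior, in experiment 2 only, for genes with a mean of at least 8, with centred animals and without IBA animal 104 and SpD animal 130. At 0.05 the last of these, added after seeing the data, gave 3 members across states (37.5% of all genes), 0 in SA/SpD (0.575%), 1 in IBA/SA (14.2%), 1 in IBA/LAr (9.36%) and 6 in the hibernation against active states (32.2%). No member's difference that passed 0.05 in the 29 animals changed sign under any alternative run. Some that did not pass changed sign, among them the SpD/IBA and IBA/LAr differences of Cdk6 in experiment 2 alone, from -0.32 to 0.15 and from 0.16 to -0.04, again without passing. Fits of only the 2 groups compared lost every pair call at 0.05 other than Cdkn1c in IBA/SA (q = 0.0409); the cause was not tested. No paired analysis was possible because each kidney came from a different animal and the labels' numbers do not repeat between states. Depth is unknown, so counting error could not be given.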
